A study of Homo sapiens with 6 samples.

Results

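The 10 genes described here are 9 keratins and vimentin, the cytoplasmic intermediate filament genes KRT7, KRT8, KRT10, KRT18, KRT19, KRT20, KRT34, KRT80, KRT81 and VIM. They were chosen by name, with earlier results of these data known, from a table of 35035 genes. They were measured in HK-2 cells, by RNA sequencing of 6 libraries. HK-2 is an established line grown from the proximal tubule of a human kidney. The cells of 3 libraries had received a plasmid for overexpression of circAASS, a circular RNA named after AASS, and those of the other 3 an empty vector. The labels give the cells of both groups as wild type. By the labels, both groups went through 24 h of 1% oxygen before 12 h of reoxygenation, so neither is a group at normal oxygen. The design text of the series instead dates profiling to 24 h after hypoxia/reperfusion, and the time on the labels is used here. The labels name no separate cultures or days for the repeats, and the p-values below therefore measure the spread between these libraries, which may be technical.

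Keratins form filaments only as pairs of an acidic type I chain and a basic type II chain, whereas vimentin, a type III protein, can form filaments with itself. KRT8 (type II) and KRT18 (type I) are the founding pair of simple epithelia such as the kidney tubule, joined by KRT7 (type II) and KRT19 (type I) in ductal and stressed epithelium. Vimentin is the filament of mesenchymal cells and also appears in tubular cells that are injured, regenerating or in culture. KRT80 (type II) is found in many epithelia, KRT10 (type I) in the upper layers of the epidermis, and KRT20 (type I) in intestinal and urothelial lining, while KRT81 (type II) and KRT34 (type I) are hair keratins.

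Of the 9 members that could be tested, 6 rose with the circAASS plasmid, none fell and 3 did not pass, beside 16.0% of all 19350 tested genes that rose and 16.3% that fell (limma, Benjamini-Hochberg adjusted p under 0.05 over all tested genes). The 6 were KRT8, KRT18, KRT7, KRT80, KRT81 and KRT34, and the 3 were KRT19, KRT10 and VIM. In the same 6 genes every circAASS library lay above every empty-vector library in deposited RPKM, as it did in 17.1% of all tested genes (groups apart in either direction, 47.5%). RPKM scale the reads of a gene to its length in kilobases and to the size of the library. The median log2 fold change was 0.30 over the 9 members and -0.01 over all tested genes. The members were chosen with earlier results of these data known, so these counts and medians are no test of the keratin family. KRT20 had too few reads to be tested; each tested member had at least 27 reads in every library, so none entered the test through 1 group alone. In whole-culture RNA, fewer cells that express a gene and less of its RNA per cell cannot be told apart.

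Sequence before the start site is shown for KRT34, which rose, and for KRT10 and VIM, which did not pass, because their RefSeq start sites lay within 100 bases of the principal transcript in GENCODE 29. The table of RefSeq promoters (GRCh38.p14) held 5 of the 10 members; KRT7, KRT18, KRT19, KRT80 and KRT81 had no entry, and that of KRT8 starts 19851 bases from its principal transcript. The window of KRT20, whose starts lie 15 bases apart, is not shown because the gene had too few reads to be tested. Each line gives the 250 bases before the start, 5′ to 3′ on the strand of the gene. Capitals mark a TATA box (TATAAA) in KRT34 and KRT10 and a GC box (GGGCGG) in VIM.
KRT34, chr17:41382307-41382556, minus strand: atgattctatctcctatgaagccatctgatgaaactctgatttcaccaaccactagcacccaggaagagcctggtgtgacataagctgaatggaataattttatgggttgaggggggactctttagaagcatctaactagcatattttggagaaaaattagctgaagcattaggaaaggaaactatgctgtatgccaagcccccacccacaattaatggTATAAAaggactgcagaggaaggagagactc
KRT10, chr17:40822615-40822864, minus strand: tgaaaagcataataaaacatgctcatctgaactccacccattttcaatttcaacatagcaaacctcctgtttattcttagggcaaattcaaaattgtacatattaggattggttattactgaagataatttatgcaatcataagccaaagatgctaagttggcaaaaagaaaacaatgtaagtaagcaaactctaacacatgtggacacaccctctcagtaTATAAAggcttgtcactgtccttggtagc
VIM, chr10:17227991-17228240, plus strand: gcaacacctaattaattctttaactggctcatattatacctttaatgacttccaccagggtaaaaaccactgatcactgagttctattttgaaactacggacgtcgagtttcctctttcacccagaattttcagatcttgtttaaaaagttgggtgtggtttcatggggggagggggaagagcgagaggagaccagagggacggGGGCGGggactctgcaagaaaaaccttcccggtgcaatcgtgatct
The TATA box begins 31 bases before the start in KRT34 and 29 bases before it in KRT10, so it is shared by a member that rose and a member that did not pass. The RefSeq start of KRT34 lies 97 bases downstream of the principal start in GENCODE 29, so its TATA box lies after that other start, not before it. VIM has the GC box 46 bases before the start and no TATA box in this window. On either strand, TATAAA is found in 10.7% and GGGCGG in 42.6% of 35116 RefSeq promoters of the same length. The AP-1 letters TGACTCA or TGAGTCA, found in 4.20%, were in none of the 3 windows. These are letter matches only.

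KRT8 had the highest level of the members in both groups (chromosome 12, 52897187 to 52949954, GRCh38). It measured 139, 158 and 150.2 RPKM with circAASS and 131, 126 and 124 RPKM with empty vector. These values rested on 45902 to 63376 reads with the circAASS plasmid and 40843 to 44796 with empty vector. The groups did not overlap, although the lowest circAASS library and the highest empty-vector library lay close together. The means were 149 ± 9.66 RPKM with circAASS and 127 ± 3.85 RPKM with empty vector (SD, n = 3 each). KRT8 thus rose by 17.3% in mean RPKM, with a log2 fold change of 0.30 (SE 0.06, limma adjusted p = 0.00747). Fold changes are on the log2(RPKM + 0.1) scale, after scaling of the libraries.

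KRT18, the type I partner, rose more (chromosome 12, 52948871 to 52952901). It stood at 99.6, 113 and 108 RPKM with circAASS, against 84.1, 76.5 and 77.3 RPKM with empty vector, from 15371 to 21210 reads with circAASS and 12220 to 13056 with empty vector. All 3 circAASS libraries were well above the 3 empty-vector libraries. The means were 107 ± 6.94 RPKM with circAASS and 79.3 ± 4.16 RPKM with empty vector (SD, n = 3 each), 35.0% apart. The log2 fold change was 0.50 (SE 0.06, limma adjusted p = 0.00153), the smallest adjusted p of the members. KRT8 and KRT18 lie head to head, and by GENCODE 29 an outer KRT8 transcript runs antisense over 16.3% of the exon bases of KRT18 and KRT18 over 7.63% of those of KRT8. Whether the authors' counting used strand is not given in the sources used here, so reads of these stretches are uncertain.

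Because the chains assemble in pairs, KRT8 was set over KRT18 within each library. The ratio of RPKM was 1.40, 1.40 and 1.39 with circAASS and 1.56, 1.64 and 1.60 with empty vector. The circAASS libraries were almost alike and all lay below the empty-vector libraries. The mean ratios were 1.39 ± 0.00570 with circAASS and 1.60 ± 0.0408 with empty vector (SD, n = 3 each). The difference in log2 ratio was -0.20 (SE 0.02; exact two-sided permutation p = 0.1, the smallest that 3 against 3 libraries allow, and 0.15 after Benjamini-Hochberg adjustment over the 3 ratios computed). A design of this size cannot pass 0.05.

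**Figure D1:**
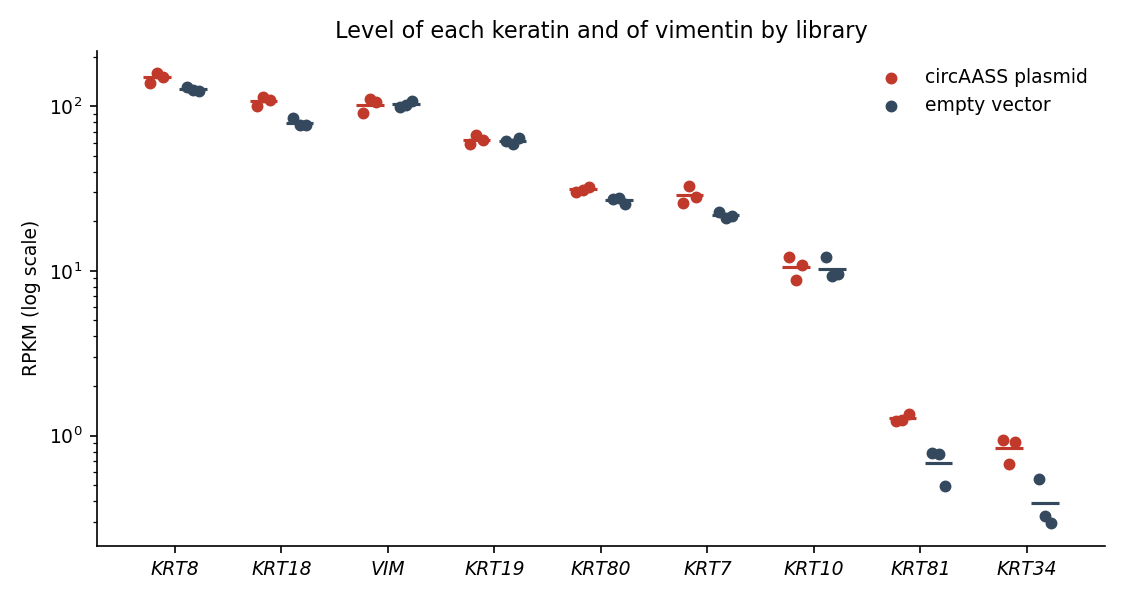
RPKM of 9 members on a log axis, 3 circAASS libraries (red) left of 3 empty-vector libraries (blue-grey) for each gene, with bars at the means. KRT8, KRT18, KRT80, KRT7, KRT81 and KRT34 show red points above all blue-grey ones, and VIM, KRT19 and KRT10 show mixed points. KRT20, at 0 to 4 reads, is not drawn.

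KRT7, the other simple-epithelial type II chain, rose by a log2 fold change close to that of KRT18 (chromosome 12, 52232520 to 52252186). It measured 25.9, 32.8 and 28.2 RPKM with circAASS and 22.8, 20.8 and 21.5 RPKM with empty vector. All circAASS libraries were higher, the second of them by the widest margin. The means were 28.99 ± 3.51 RPKM with circAASS and 21.7 ± 0.993 RPKM with empty vector (SD, n = 3 each), with a log2 fold change of 0.48 (SE 0.09, limma adjusted p = 0.00605). Antisense genes, KRT7-AS and KRT87P, cover 7.67% of its exon bases.

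KRT80, described near desmosomes in epithelia, had the smallest SE of the members (chromosome 12, 52168996 to 52192000). Its levels were 30.3, 30.9 and 32.5 RPKM with circAASS and 27.5, 27.7 and 25.6 RPKM with empty vector. The groups were separate, with means of 31.2 ± 1.14 RPKM with circAASS and 26.9 ± 1.14 RPKM with empty vector (SD, n = 3 each). Its log2 fold change of 0.29 (SE 0.05, limma adjusted p = 0.00587) was close to that of KRT8. No other annotated gene shares its exon bases.

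The type I chain KRT19, which lacks most of the tail domain of other keratins, did not pass (chromosome 17, 41523617 to 41528308). It stood at 59.1, 66.5 and 62.2 RPKM with circAASS and 61.6, 59.3 and 63.7 RPKM with empty vector, from 6620 to 9036 reads with circAASS and 6492 to 7807 with empty vector. The groups overlapped. The log2 fold change was 0.10 (95% interval -0.03 to 0.23, limma adjusted p = 0.222), so the upper bound lies below the estimates for all 6 members that rose.

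KRT10, the epidermal type I chain, had an SE of 0.15 (chromosome 17, 40818117 to 40822595). Its levels were 12.2, 8.76 and 10.9 RPKM with circAASS and 12.1, 9.27 and 9.60 RPKM with empty vector. In both groups the first library was highest. The log2 fold change of 0.11 had a wide 95% interval of -0.23 to 0.45 (limma adjusted p = 0.592), which holds the estimate of KRT8.

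The 2 hair keratins were low and showed the largest fold changes of the members. KRT81 measured 1.22, 1.25 and 1.36 RPKM with circAASS and 0.781, 0.772 and 0.494 RPKM with empty vector (chromosome 12, 52285913 to 52291534). The reads numbered 113, 140 and 124 with circAASS and 68, 76 and 50 with empty vector. The groups were clearly apart, and the log2 fold change was 0.90 (SE 0.18, limma adjusted p = 0.00802), and 0.47 with a pseudocount of 1 RPKM. KRT86, a hair keratin of very similar sequence next to it, stood at 0.206 ± 0.0301 RPKM with circAASS and 0.160 ± 0.0422 RPKM with empty vector (SD, n = 3 each; adjusted p = 0.255), and reads of such copies can be split wrongly or dropped.

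KRT34 stood at 0.941, 0.668 and 0.916 RPKM with circAASS and 0.544, 0.325 and 0.294 RPKM with empty vector (chromosome 17, 41377650 to 41382403). These came from 79, 68 and 76 reads with circAASS and 43, 29 and 27 with empty vector. The groups did not overlap, but the second circAASS library and the first empty-vector library were near each other. Its log2 fold change of 1.03 (SE 0.23, limma adjusted p = 0.0134) was 0.44 with a pseudocount of 1 RPKM. The call was lost without circAASS library 3 (adjusted p = 0.0518) or without empty-vector library 2 (adjusted p = 0.0509).

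KRT20 was at the limit of detection, with 4, 0 and 0 reads in the circAASS libraries and 2, 0 and 2 reads in the empty-vector libraries (chromosome 17, 40875941 to 40885227). With mates counted separately, a library with 0 reads allows up to 3 read pairs, or 6 reads. That is 0.0559 and 0.0686 RPKM in the 2 such circAASS libraries and 0.0637 RPKM in the empty-vector one, for counting error only. No difference was detectable at this depth, and no fold is given.

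**Figure D2:**
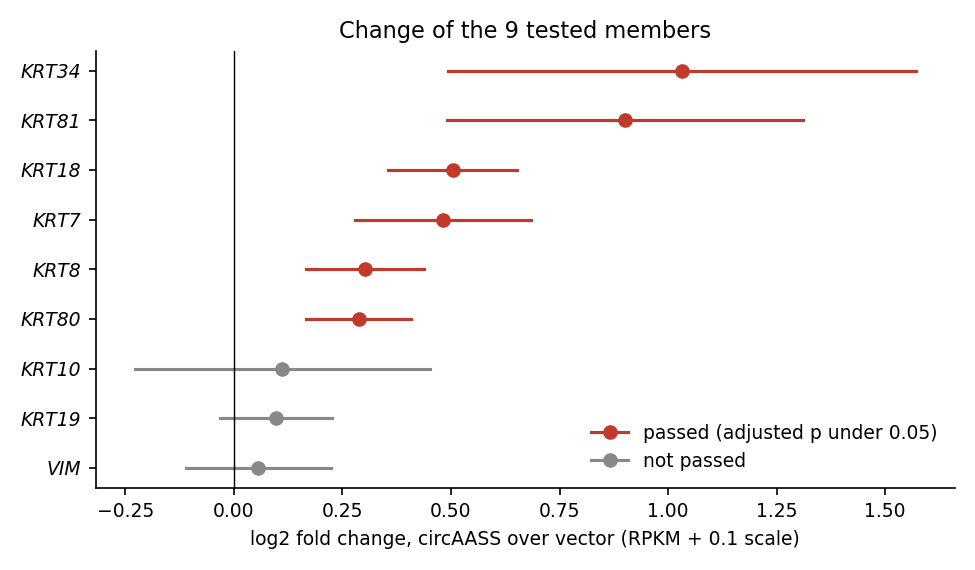
Log2 fold change of circAASS over empty vector for the 9 tested members, with 95% intervals from limma (points are estimates, red where the adjusted p is under 0.05). Estimates run from 0.06 for VIM to 1.03 for KRT34, and the intervals of KRT10, KRT19 and VIM cross 0.

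VIM did not pass the test (chromosome 10, 17228259 to 17237593). It stood at 90.6, 110.2 and 105 RPKM with circAASS, from 22407, 33075 and 25768 reads. With empty vector it stood at 99.2, 102 and 108 RPKM, from 23109, 26763 and 29232 reads. The first circAASS library was the lowest of all 6 and the second the highest, so the empty-vector values lay within the circAASS range. The means were 102 ± 10.2 RPKM with circAASS and 103 ± 4.53 RPKM with empty vector (SD, n = 3 each), the log2 fold change was 0.06 (95% interval -0.11 to 0.22) and the limma adjusted p = 0.583. The estimate turned to -0.02 with scaling by library size alone.

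Of the exon bases of VIM, 24.4% lie opposite VIM-AS1 or AL133415.1. VIM-AS1 itself was listed at 72.0 ± 5.15 RPKM with circAASS and 75.4 ± 1.23 RPKM with empty vector (SD, n = 3 each; log2 fold change 0.00, limma adjusted p = 0.977), and 32.2% of its exon bases lie opposite VIM. Without known strand, reads of this stretch cannot be assigned, so the level of VIM is uncertain to that extent. Neither gene of the pair passed the test.

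Set against the keratins of the same library, VIM was lower with circAASS. The ratio of VIM to the summed RPKM of the 9 keratins was 0.246, 0.267 and 0.267 with circAASS and 0.291, 0.317 and 0.335 with empty vector. The groups did not overlap, and the difference in log2 ratio was -0.27 (SE 0.07; exact two-sided permutation p = 0.1, the smallest possible, adjusted 0.15). VIM itself did not pass the test, and the summed keratin RPKM was higher with circAASS, at 368, 412 and 395, against 341, 321 and 323 with empty vector. Summed keratin averaged 391.8 ± 22.2 RPKM with circAASS and 328 ± 11.1 RPKM with empty vector (SD, n = 3 each), 19.5% apart.

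Type II over type I keratins, summed over the members, came to 1.14, 1.18 and 1.16 with circAASS and 1.15, 1.20 and 1.14 with empty vector. The groups overlapped fully, with a difference in log2 ratio of -0.0027 (SE 0.03, exact two-sided permutation p = 1). Within type I, KRT18 made up 27.3 ± 0.241% of the keratin RPKM with circAASS and 24.2 ± 0.440% with empty vector. KRT19 made up 16.0 ± 0.186% with circAASS and 18.8 ± 0.873% with empty vector (SD, n = 3 each). KRT8 held 38.1 ± 0.311% with circAASS and 38.8 ± 0.440% with empty vector. The groups were apart for all 3 shares, and also for those of KRT7, KRT34 and KRT81. Shares add up to a fixed whole, so KRT19, whose own level did not pass, loses share when the summed keratin RPKM is higher.

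**Figure D3:**
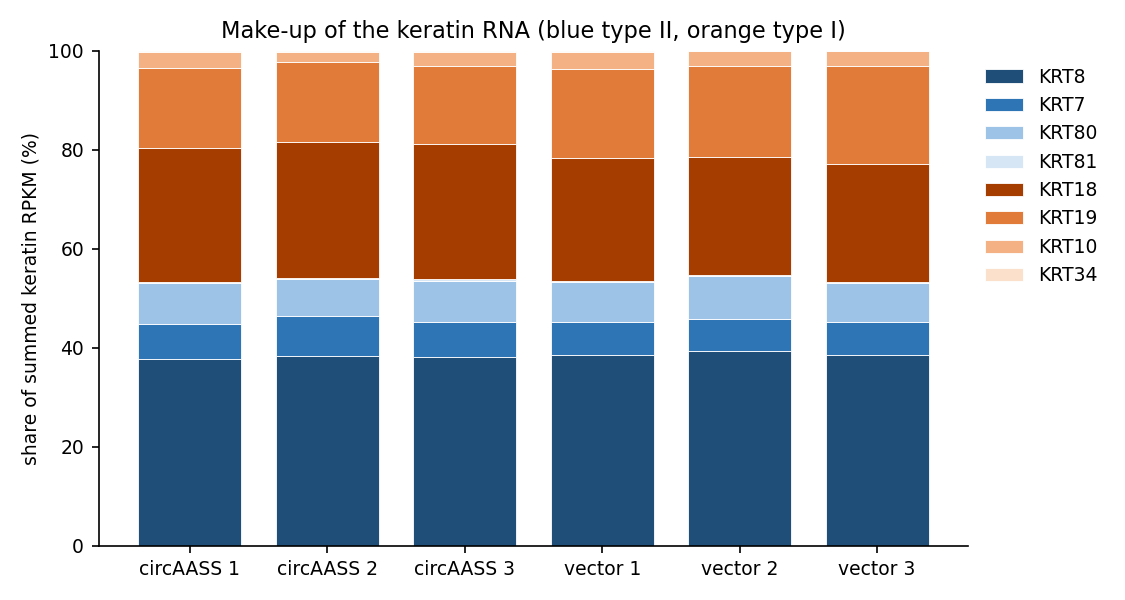
Share of each keratin (%) in the summed keratin RPKM of each library, circAASS libraries left of empty-vector libraries, type II chains in blue and type I in orange. The dark orange band of KRT18 is wider in the 3 circAASS libraries (27.0% to 27.5%) than in the 3 empty-vector libraries (23.9% to 24.7%), and the band of KRT19 is narrower.

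**Figure D4:**
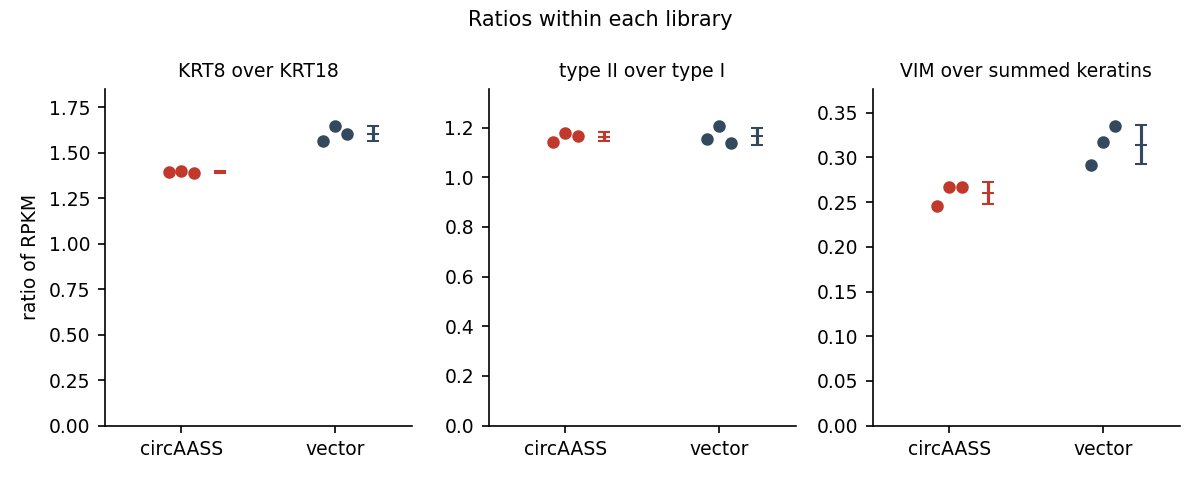
Ratios of RPKM within each library, points for the 3 libraries per group and bars for mean ± SD, all axes from 0. KRT8 over KRT18 and VIM over summed keratins are lower in all circAASS libraries, and type II over type I overlaps.

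In order of mean RPKM the members ran KRT8, KRT18, VIM, KRT19, KRT80, KRT7, KRT10, KRT81, KRT34 and KRT20 with circAASS. With empty vector the order was the same except that VIM stood above KRT18. Across libraries the ranges of KRT18 and VIM, and of KRT80 and KRT7, overlapped with circAASS, and those of KRT81 and KRT34 did with empty vector. The order between genes leans on the length used, which was the union of all annotated exons, 5158 bases for VIM and 3218 for KRT18. With the principal transcript in its place (2135 and 1562 bases), VIM stood at 247 and KRT18 at 221 on the RPKM scale with circAASS, and at 249 and 163 with empty vector, so VIM was above KRT18 in both groups. KRT8 stayed highest, at 483 with circAASS and 412 with empty vector.

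The 9 keratin members held nearly all keratin RNA, 99.3% of the RPKM of 51 keratin genes in the table with circAASS and 99.2% with empty vector. The other 42 keratins reached at most 0.566 RPKM in mean, and 9 of them had enough reads to be tested. Of these, 1 rose and none fell. It was the cornea keratin KRT3, a type II chain, at 0.297, 0.311 and 0.346 RPKM with circAASS and 0.115, 0.0507 and 0.0575 RPKM with empty vector (log2 fold change 1.32, SE 0.18, limma adjusted p = 0.00221). These came from 33, 42 and 38 reads with circAASS and 12, 6 and 7 with empty vector. KRT3 met the minimum of 10 reads in 3 libraries through the circAASS group, since only the first empty-vector library reached it. At its empty-vector level alone it would not have been tested, so its call is no independent support for a rise. Its log2 fold change ran from 0.31 with a pseudocount of 1 RPKM to 2.22 with voom. KRT15 and KRT14, type I chains of basal epidermis, stood at 0.656 and 0.334 RPKM with circAASS and 0.476 and 0.412 RPKM with empty vector and did not pass (adjusted p = 0.0812 and 0.548). KRT17, at 0.111 RPKM with circAASS and 0.108 RPKM with empty vector, and the type II chains KRT86, KRT79, KRT78, KRT5 and KRT6A also did not pass (adjusted p = 0.255 to 0.918). Counted by type, 2 of 7 tested type I keratins and 5 of 10 tested type II keratins, KRT3 included, rose, beside 16.0% of all tested genes. Apart from KRT3, these rises are members chosen with earlier results known, so the counts are no test of either type.

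The 9 keratin members sit in the 2 keratin clusters of the genome, and VIM lies on chromosome 10. On chromosome 12, KRT80, KRT7, KRT81, KRT8 and KRT18 lie between 52168996 and 52952901, and all 5 rose, beside 16.0% of all tested genes. In that stretch KRT18 is the sole type I gene. Of 7 other tested genes there, 1 rose (KRT3, with the limit given above) and none fell. On chromosome 17, KRT10, KRT20, KRT34 and KRT19 lie between 40818117 and 41528308. Of these, KRT34 rose, KRT10 and KRT19 did not pass and KRT20 was not tested. None of the 3 other tested genes there, TMEM99, KRTAP2-3 and KRT15, passed. The members were chosen with earlier results known, so their counts are no test of either cluster.

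Processed copies of KRT8 and KRT18 are scattered over the genome and can take or lend reads. The table listed 34 genes named as KRT8 pseudogenes, whose summed reads came to 1.55% to 2.57% of the KRT8 reads, and 32 named for KRT18, at 0.222% to 0.559%. None of the 8 and 2 that could be tested passed. The highest, KRT8P12, stood at 5.59, 3.71 and 4.33 RPKM with circAASS and 5.69, 5.53 and 5.03 RPKM with empty vector (limma adjusted p = 0.350).

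Other intermediate filament genes moved in both directions. Of 12 tested genes of this list, which includes VIM, 4 rose, 4 fell and 4 did not pass (median log2 fold change -0.01). Over all tested genes 16.0% rose and 16.3% fell. NEFH, the heavy neurofilament chain of neurons, had the highest RPKM of this list at union-exon lengths, a rank that leans on the length used. It rose, at 221, 192 and 200.2 RPKM with circAASS against 122, 120 and 116 RPKM with empty vector (log2 fold change 0.85, SE 0.07, limma adjusted p = 0.000347). INA, alpha-internexin, another neuronal chain, averaged 36.4 ± 0.168 RPKM with circAASS and 27.0 ± 0.241 RPKM with empty vector (SD, n = 3 each; log2 fold change 0.50). BFSP1, the lens filament filensin, and LMNA, which encodes lamins A and C of the nuclear envelope, were the other rises (log2 fold changes 0.63 and 0.35).

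NES, the progenitor filament nestin, which assembles with vimentin, fell to 65.1, 60.2 and 57.6 RPKM with circAASS, against 97.3, 99.0 and 92.5 RPKM with empty vector (log2 fold change -0.59, SE 0.07, limma adjusted p = 0.00115). SYNM, the vimentin and desmin partner synemin, averaged 8.70 ± 0.966 RPKM with circAASS and 13.1 ± 0.943 RPKM with empty vector (SD, n = 3 each), and antisense genes share 27.7% of its exon bases. LMNB1, lamin B1, averaged 71.3 ± 2.04 RPKM with circAASS and 87.7 ± 1.97 RPKM with empty vector. The fourth fall, NEFL, was low at 0.113 RPKM with circAASS and 0.252 RPKM with empty vector and lost its call in 5 of the 6 fits without 1 library (adjusted p up to 0.0886). NES and SYNM fell while VIM did not pass, and whether these changes are linked was not tested. The other 3 that did not pass were GFAP, NEFM and LMNB2 (adjusted p = 0.421, 0.0715 and 0.514).

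Genes that tie filaments to junctions and to other cytoskeletons moved in both directions. Of 12 tested plakins and other linkers, 7 fell, 2 rose and 3 did not pass, with a median log2 fold change of -0.34. Over all tested genes 16.3% fell and 16.0% rose. EVPL, envoplakin, averaged 20.9 ± 1.23 RPKM with circAASS and 29.9 ± 0.649 RPKM with empty vector (SD, n = 3 each; log2 fold change -0.45, SE 0.06, limma adjusted p = 0.00244). The keratin-binding FBF1 and syncoilin (SYNC) fell by 0.56 and 0.37 on the log2 scale, but 49.6% and 48.9% of their exon bases are shared with neighbours. TCHH, the hair-follicle linker trichohyalin, averaged 0.206 ± 0.0747 RPKM with circAASS and 0.753 ± 0.137 RPKM with empty vector (log2 fold change -1.44). DSP, desmoplakin, which anchors keratins at desmosomes, stood at 61.6 ± 5.44 RPKM with circAASS and 65.4 ± 2.55 RPKM with empty vector and did not pass (adjusted p = 0.874), nor did PPL and TCHP (adjusted p = 0.994 and 0.225). PLEC, plectin, which links filaments to hemidesmosomes, averaged 33.2 ± 4.48 RPKM with circAASS and 46.0 ± 3.06 RPKM with empty vector (log2 fold change -0.40, adjusted p = 0.0212, up to 0.0762 with 1 library left out). The rises were DST (16.5 RPKM with circAASS, 13.9 with empty vector) and FLG (0.309 RPKM with circAASS, 0.162 with empty vector), with log2 fold changes of 0.31 and 0.69 and adjusted p up to 0.0564 and 0.0586 with 1 library left out.

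Of 12 tested genes of desmosomes and hemidesmosomes, 4 fell, 2 rose and 6 did not pass (median log2 fold change -0.15), beside 16.3% and 16.0% of all tested genes that fell and rose. The integrin chains of the hemidesmosome led the falls. ITGB4 stood at 0.355, 0.442 and 0.375 RPKM with circAASS and 1.16, 1.43 and 1.36 RPKM with empty vector (log2 fold change -1.47, SE 0.14, limma adjusted p = 0.000608). Its partner ITGA6 averaged 0.899 ± 0.0905 RPKM with circAASS and 1.53 ± 0.128 RPKM with empty vector (SD, n = 3 each; log2 fold change -0.64). The desmosomal cadherins DSG2 and DSC2 fell by 0.18 and 0.47 on the log2 scale, and each lost its call in 5 of the 6 fits without 1 library (adjusted p up to 0.121). COL17A1 and PKP4 rose, by log2 fold changes of 0.84 and 0.18. The call of PKP4 was lost in all 6 such fits (adjusted p up to 0.102), and that of COL17A1 once empty-vector library 2 was left out (adjusted p = 0.0528).

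**Figure D5:**
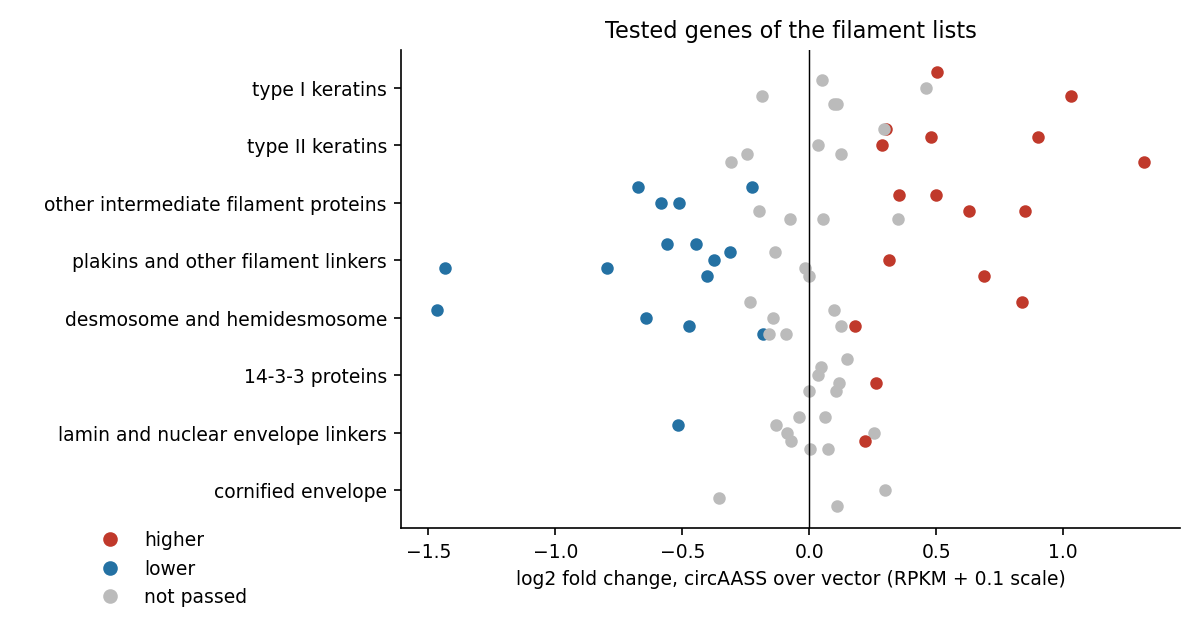
Log2 fold change of circAASS over empty vector of every tested gene of 8 lists of filament genes, each point a gene, red where it rose, blue where it fell and grey where it did not pass. Type I keratins show 2 red and 5 grey points, type II keratins 5 red and 5 grey, and neither shows blue ones. Linkers show 7 blue, 2 red and 3 grey points. Over all tested genes 16.0% rose and 16.3% fell.

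Of 7 tested 14-3-3 genes, whose products bind phosphorylated KRT18, SFN (stratifin) alone rose, at 16.1 ± 0.292 RPKM with circAASS and 14.1 ± 0.718 RPKM with empty vector (SD, n = 3 each; log2 fold change 0.26, limma adjusted p = 0.0143), and 6 did not pass. The most abundant, YWHAE, stood at 323 RPKM with circAASS and 313 RPKM with empty vector (adjusted p = 0.104). YWHAQ averaged 40.3 RPKM with circAASS and 38.2 RPKM with empty vector (adjusted p = 0.0728), and YWHAZ 71.1 RPKM with circAASS and 69.5 RPKM with empty vector (adjusted p = 0.109). Of 10 tested linkers of the nuclear envelope, LBR, the lamin B receptor, rose (13.6 RPKM with circAASS, 12.2 with empty vector). SYNE2, nesprin-2, fell (2.60 ± 0.208 RPKM with circAASS, 3.95 ± 0.135 with empty vector; SD, n = 3 each; log2 fold change -0.52). LBR lost its call once empty-vector library 2 was left out (adjusted p = 0.0519) and with scaling by library size alone (adjusted p = 0.0683). BANF1 and SYNE1, next in order of p, did not pass (adjusted p = 0.118 and 0.122). None of the 3 tested genes of the cornified envelope passed, which were SBSN, CNFN and TGM1 (adjusted p = 0.166, 0.409 and 0.640). Of all tested genes 16.0% rose and 16.3% fell, and the 14-3-3 and nuclear envelope counts are near or under those shares.

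The labelled cell type was checked against marker genes. Of 9 proximal tubule markers in the table, 7 were under 0.1 RPKM in every library, among them LRP2, CUBN, AQP1, SLC34A1 and HNF4A. The other 2, SLC5A2 and GGT1, fell with circAASS, as did 16.3% of all tested genes. SLC5A2 stood at 1.87 RPKM with circAASS and 3.85 RPKM with empty vector (log2 fold change -0.93, limma adjusted p = 0.00114). GGT1 stood at 7.11 RPKM with circAASS and 9.25 RPKM with empty vector (log2 fold change -0.30, limma adjusted p = 0.00839). SLC5A2 shares 40.7% of its exon bases with antisense genes. The simple-epithelial list was carried by KRT8, KRT18, KRT19 and KRT7 themselves, with EPCAM at 22.1 RPKM with circAASS and 26.8 RPKM with empty vector, a fall that passed (log2 fold change -0.21, limma adjusted p = 0.0284) that was lost in 5 of the 6 fits without 1 library (adjusted p up to 0.104). CDH1, E-cadherin, stood at 0.0219 RPKM with circAASS and 0.0659 RPKM with empty vector. Summed endothelial markers lay at 0.0767 to 0.109 RPKM with circAASS and 0.0754 to 0.107 RPKM with empty vector, and those of stratified epithelium at 0.607 to 0.737 with circAASS and 0.620 to 0.822 with empty vector. Fibroblast markers, mostly LUM and COL1A1, summed to 4.17 to 4.50 RPKM with circAASS and 3.72 to 4.51 RPKM with empty vector, and those of collecting duct, mostly AVPR2, to 1.45 to 2.84 with circAASS and 1.12 to 1.32 with empty vector. AVPR2 rose (adjusted p = 0.0161, up to 0.0587 with 1 library left out). The leukocyte list summed to 78.6 to 101 RPKM with circAASS and 102 to 106 RPKM with empty vector, nearly all from CD68, 85.8% of whose exon bases are shared with other genes, while PTPRC stood at 0.00805 RPKM with circAASS and 0.00661 RPKM with empty vector.

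Across the series, library totals ran from 47384879 to 58179563 reads with circAASS and from 45148425 to 52470055 with empty vector, mates of a pair counted separately. The host gene AASS stood at 0.880 ± 0.0842 RPKM with circAASS and 1.23 ± 0.141 RPKM with empty vector (SD, n = 3 each; limma adjusted p = 0.0677). A sum over the gene in poly(A) RNA does not separate circular, linear and plasmid RNA and so does not check the labels. Of 3 RNAs without a poly(A) tail, added after their values were seen, all rose, beside 16.0% of all tested genes. Their rise went with the same groups as that of the keratins that rose. RN7SK stood at 55.6, 135 and 190.3 RPKM with circAASS and 44.7, 34.1 and 37.0 RPKM with empty vector (log2 fold change 1.63, limma adjusted p = 0.0181), and lost its call in 3 of the 6 fits without 1 library (adjusted p up to 0.0644). RN7SL1 averaged 18.3 ± 4.85 RPKM with circAASS and 9.43 ± 2.21 RPKM with empty vector (SD, n = 3 each; log2 fold change 1.02, limma adjusted p = 0.00945). RN7SL2 averaged 12.9 ± 2.26 RPKM with circAASS and 4.66 ± 1.57 RPKM with empty vector (SD, n = 3 each; log2 fold change 1.56, limma adjusted p = 0.00273). Neither of these lost its call in such fits, and the part of these RNAs in the keratin results was not tested.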

How the data were processed

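RNA was sequenced as read pairs from a stranded mRNA kit, per the labels' protocols. The deposited values were RPKM per gene, 1 column per library, and no column was left unmatched. The submitters' processing notes name Trimmomatic 0.36, featureCounts, Subread 1.5.1, edgeR 3.12.1 and GRCh38; no source used here names the aligner, annotation or strand setting. Names of 28 genes turned into dates were left out.

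Whole reads were worked out from RPKM with exon-union lengths of GENCODE 29: 22385 of 24697 genes (90.6%), all members included, gave whole numbers within 0.02 reads in every library, and 12622 others took the smallest length that did. Even numbers made up 78.6% of those from 1 to 20 reads, as when mates are counted separately, so counting error exceeds what the reads imply. Libraries of a group differed beyond sampling noise (chi-square per degree of freedom 5.81 to 22.10), so none was a copy. RPKM were divided by trimmed-mean factors (trims of 30% for ratios, 5% for levels), 0.958 to 0.996 with circAASS and 1.018 to 1.036 with empty vector. limma 3.58.1 (R 4.3.3; trend, robust) tested log2(RPKM + 0.1) over 19350 genes that reached 10 reads, scaled to the median library, in 3 libraries and 15 over all; p-values are two-sided. Low genes have understated fold changes. The procedure was tested on simulated data. Levels, means and SD are deposited RPKM. Ratios were compared with scipy 1.17.1, and figures drawn with matplotlib 3.10.9.

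Named genes were all members, up to 4 non-members with the smallest p in each list, genes that complete a count of 5 or fewer, and the highest pseudogene; DSP, PLEC, TMEM99, KRTAP2-3, the markers, AASS, VIM-AS1 and the 3 RNAs without a poly(A) tail were added after their values were seen. The members and lists were chosen with earlier results of these data known.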

Additional observations from a re-analysis of the deposited data

How the results depend on the processing

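Over 15 other settings (14 for KRT34 and KRT81, which fell under a minimum mean of 1 RPKM), KRT7, KRT8, KRT18, KRT80 and KRT81 kept their rise and call, with adjusted p up to 0.0295, 0.0365, 0.0110, 0.0239 and 0.0336, and KRT34 kept it in 12. The members that rose numbered 6, 5 or, with the minimum of 1 RPKM, 4, and none fell under any setting. The sign of VIM turned to -0.0169 with library size alone, and leave-one-out fits gave -0.0038 to 0.13; those of KRT10 gave -0.0046 to 0.24 and of KRT17 -0.16 to 0.22. None of these passed in any setting. Outside the leave-one-out fits, some genes named above reached a larger limma adjusted p in another setting. It was up to 0.142 for NEFL, 0.152 for PKP4, 0.0829 for COL17A1, 0.0806 for FLG and 0.110 for RN7SK.

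Of all genes, 3091 rose and 3152 fell. With library size alone 2159 rose and 4023 fell, with a median log2 fold change of -0.08 in place of -0.01, and with no filter 2310 rose and 2084 fell. Leave-one-out fits gave 2041 to 2746 rises and 1970 to 2789 falls. Same-numbered libraries did not deviate together (correlations of -0.02 to 0.02), so the numbers do not pair them; with the replicate number as a block, 2730 genes rose and 2698 fell, and 6 members rose and 0 fell.

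The log2 difference in KRT8 over KRT18 was -0.23 with pseudogenes added to their parents and -0.22 to -0.18 in leave-one-out values, and that of VIM over keratins was -0.33 to -0.23. The difference in type II over type I was -0.0429 in reads not scaled to length, and -0.0196 to 0.0216 in leave-one-out values. Principal transcript lengths, chosen after seeing the data, changed no direction. The cause of these shifts was not tested. Low read numbers limit KRT34, KRT81 and KRT20.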
